A study of Drosophila melanogaster with 12 samples.

Results

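Small RNAs were compared between the heads of flies that express human TDP-43 (hTDP-43) in glia and control flies without the transgene. The small RNA comparison used 6 libraries of the 12 in the series. The 3 control libraries, labelled Repo/2U (replicates 19, 20 and 21), came from flies with the glial driver Repo-Gal4 crossed to the background strain. The 3 libraries labelled Repo/TDP43 (replicates 22, 23 and 24) carried the same driver together with the hTDP-43 transgene. Both groups therefore carried the driver. An effect of hTDP-43 itself cannot be told apart from one of the transgene insertion or of its parent stock, such as its transposon copies. The paper reports marginally more genomic DNA of the transposon gypsy in the parent line of the transgene. The stocks had been backcrossed to the Canton-S derivative w1118 (isoCJ1). The driver acts in glia, but RNA was taken from whole heads, so glia contributed only part of each library. The age and sex of the flies in these libraries, and whether replicates came from separate cultures, are not given in the sources used here, and the p-values measure only the spread between these libraries. The paper states that most glial hTDP-43 flies that leave the pupal case are male. Sex may therefore differ between the groups and cannot be told apart from genotype here. RNA-seq levels are set beside the small RNA values further on. They come from heads of Repo/TDP43 flies (2 libraries) and of flies with the transgene but no driver (TDP43/2U, 2 libraries). The paper states an age for its RNA-seq flies, and whether the small RNA flies had the same age is not given.

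All rows of the small RNA count table were used, 285351 in number. They were sorted by their prefix into 8 classes. These were 452 mature miRNA rows, 230 miRNA hairpin rows, 123 sense and 121 antisense transposon rows, 96 piRNA cluster rows, 181124 exon rows, 100155 intron rows and 3050 ribosomal RNA rows. The values were read counts.

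Fly small RNAs of this size arise by several routes. miRNAs are cut from short hairpins by Drosha and Dicer-1 and mostly loaded into Argonaute1, where they repress mRNAs. Endogenous siRNAs are cut by Dicer-2 from long double-stranded RNA, made by transposons, by hairpin transcripts and by overlapping transcripts, and are loaded into Argonaute2. In heads they are the main class known to act against transposons. piRNAs are longer, arise without Dicer from clusters of broken transposons, and act chiefly in the gonads. Short pieces of mRNAs, introns, spliceosomal RNAs and ribosomal RNA also enter such libraries.

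The 6 libraries held between 31074082 and 37736599 counts. Replicates of a group differed far beyond counting noise, with chi-square values per degree of freedom between 8.33 and 35.4. The TMM scaling factors, which correct for composition, ranged from 0.770 in replicate 20 to 1.37 in replicate 22. The median log2 fold change over all tested rows was 0.018 with these factors and 0.14 when libraries were scaled by their totals alone, and a change is read against these values. Among marker miRNAs of other tissues, those of muscle (miR-1 and miR-133) summed to 640575 to 905115 counts in Repo/2U and 714330 to 717573 in Repo/TDP43. The gut list (miR-281) summed to 9882 to 12232 and 8800 to 9182 counts. The testis list summed to 302, 256 and 832 counts in Repo/2U and 464, 570 and 735 in Repo/TDP43, with the highest value in replicate 21. The neuronal miR-124-3p took 3.84% ± 0.793 (SD, n = 3) of the miRNA counts in Repo/2U and 3.95% ± 0.421 (n = 3) in Repo/TDP43, as a head library should hold.

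The make-up of the libraries by class was compared first. Mature miRNAs took 80.6%, 85.2% and 79.4% of the counts in the Repo/2U libraries and 76.2%, 82.0% and 82.6% in the Repo/TDP43 libraries. The groups overlapped in this share and in every other class. Ribosomal RNA took between 6.37% and 10.5% of the counts, exons between 3.63% and 6.75%, introns between 3.30% and 5.02%, and hairpins between 0.629% and 0.726%. Antisense transposon RNA took 0.691% ± 0.10 (SD, n = 3) in Repo/2U and 0.65% ± 0.0362 (n = 3) in Repo/TDP43. Sense transposon RNA took 0.195% ± 0.0208 and 0.201% ± 0.00944. piRNA clusters took only between 0.00446% and 0.00643%. Exons had the largest ratio between groups, with 4.39% ± 0.680 in Repo/2U and 5.32% ± 1.26 in Repo/TDP43. No class differed by the two-sided exact permutation test over libraries, where p was between 0.2 and 1.0 and 0.8 or more after adjustment over 8 classes. With 20 groupings the smallest p this test allows is 0.1. In bulk heads, fewer cells of a type and less RNA per cell cannot be told apart in any of these values.

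**Figure D1:**
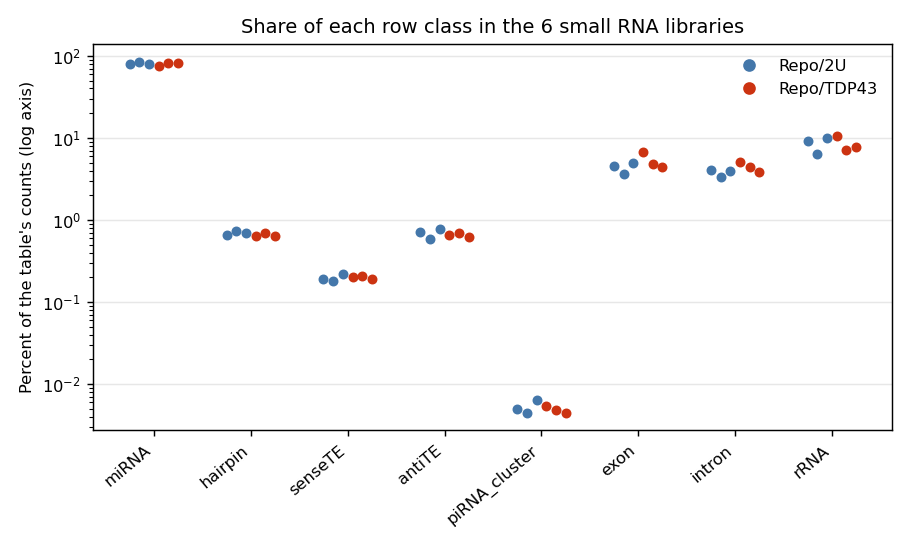
Percent of each library's counts (log axis) in the 8 row classes, with 1 point per library, blue for Repo/2U and red for Repo/TDP43. The points of the groups overlap in every class, and miRNAs hold between 76.2% and 85.2% of the counts.

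Single rows were then tested within these classes. Of 28127 rows with enough counts, 2542 (9.04%) differed between groups by edgeR's quasi-likelihood test at an adjusted p under 0.05, 1901 of them (6.76%) higher and 641 (2.28%) lower in Repo/TDP43. Scaled by totals alone, 1404 rows were higher and 254 lower. Without replicate 19, 21 or 23 the number of called rows was 1686, 1594 and 1576. The share of called rows was 24.8% among sense transposon rows, 16.7% among antisense transposon rows, 12.6% among miRNAs, 10.5% among exons, 7.72% among introns, 6.45% among piRNA clusters, 2.06% among hairpins and 0.372% among rRNA rows.

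Among miRNAs, a group of early embryonic miRNAs rose and a few others fell, while the miRNAs that dominate the head libraries did not pass the test. In all, 26 of the 294 tested rows were higher and 11 lower in Repo/TDP43. The called miRNAs were mostly rare. Of the 168 rows with a mean of at least 10 CPM (the count scaled to a common library size, with TMM factors), 9 were called, against 28 of the 126 rows below it. None of the 20 most abundant miRNAs, which made up between 83.1% and 86.0% of all miRNA counts, was called. Their log2 fold changes ran from -1.0 to 0.24.

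The members of the mir-309 cluster rose together. The cluster holds 8 neighbouring miRNA genes on chromosome 2R with no other miRNA gene between them. It is switched on in the early embryo and clears maternal mRNAs there. miR-286-3p had 75, 83 and 49 counts in the Repo/2U libraries and 1401, 1527 and 1198 in the Repo/TDP43 libraries, a log2 fold change of 4.15 ± 0.28 (SE, edgeR adjusted p = 6.21e-05). Every Repo/TDP43 library lay far above every control, and the same held for the other members. miR-6-3p had 82, 61 and 56 against 694, 735 and 652 counts (log2 fold change 3.24 ± 0.21, edgeR adjusted p = 6.21e-05). Its 3 rows stand for gene copies that share nearly all of these reads, so they count as 1 miRNA here. miR-3-3p had 243, 222 and 162 against 1278, 1319 and 1148 counts (2.42 ± 0.22 on the log2 scale, edgeR adjusted p = 0.00022). miR-5-5p had 90, 83 and 67 against 680, 634 and 696 counts (2.91 ± 0.22, edgeR adjusted p = 7.59e-05). The largest of these levels was still low, with means of 20.2 CPM for miR-3-3p and 19.9 CPM for miR-286-3p. miR-4-3p rose by 3.53 ± 0.27 on the log2 scale, from 35, 33 and 30 to 365, 427 and 456 counts. miR-309-3p rose by 3.14 ± 0.26, from 7, 4 and 4 to 60, 50 and 42 counts. Both arms of miR-4, miR-5 and miR-309 were called. The fainter miR-309-5p lost its call without replicate 19 (edgeR adjusted p = 0.053, log2 fold change 2.85 against 3.44).

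A second pair of neighbouring genes, mir-994 and mir-318 on chromosome 3R, rose less. Their products are known from the ovary. miR-318-3p had 45, 35 and 37 counts in Repo/2U and 171, 124 and 115 in Repo/TDP43 (log2 fold change 1.63 ± 0.18, edgeR adjusted p = 0.000492). miR-994-5p had 15, 10 and 16 against 46, 48 and 45 counts (1.61 ± 0.25, edgeR adjusted p = 0.0028). The groups did not overlap for either. miR-318, miR-3 and miR-309 share a seed, the part of a miRNA that pairs with its targets, and all were higher. On the list of ovary and early embryo miRNAs, 8 of 12 members were called, all higher. Over all 294 miRNA rows tested, 26 were higher and 11 lower. The median log2 fold change of the list's 18 rows was 2.76, against -0.09 over all miRNAs tested. The called members are those of the mir-309 cluster and of the pair above, so the list is no separate evidence. The 4 members not called were miR-310, miR-311, miR-312 and miR-313, for example miR-310-3p with 67, 24 and 98 against 50, 56 and 41 counts. The list summed to 987, 780 and 906 counts in Repo/2U and 6491, 6759 and 6052 in Repo/TDP43, out of at least 31074082 in each library. The part of ovarian or embryonic RNA in the other results was not tested.

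**Figure D2:**
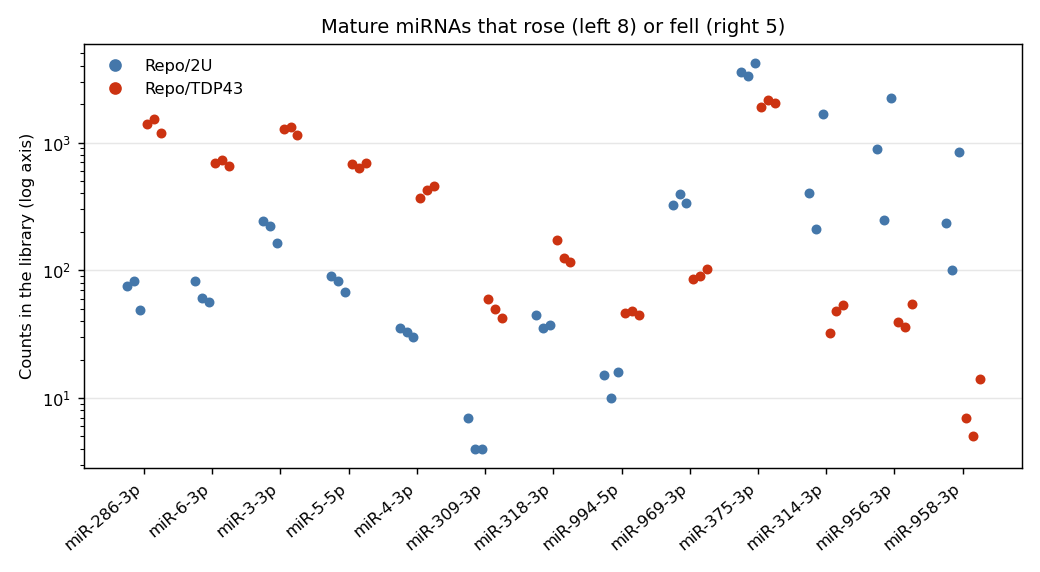
Counts per library (log axis) of 8 mature miRNAs that rose and 5 that fell, with 1 point per library, blue for Repo/2U and red for Repo/TDP43. The red and blue points do not overlap for any of the 13, and the controls of miR-314-3p, miR-956-3p and miR-958-3p are widely spread, with replicate 21 highest.

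On the testis list, 4 of the 14 members tested were higher and none lower by edgeR, beside 26 higher and 11 lower of all 294 miRNA rows tested. miR-303-5p had 7, 10 and 12 counts in Repo/2U and 32, 40 and 33 in Repo/TDP43 (log2 fold change 1.69 ± 0.33, edgeR adjusted p = 0.0102). The calls of miR-303-3p, miR-982-3p, miR-983-3p and miR-984-5p were each lost without replicate 19 (edgeR adjusted p between 0.0505 and 0.105 over the left-out libraries that ended a call), and all but miR-303-3p also without others of the 6 libraries. The fold of miR-982-3p, with 3, 3 and 4 against 15, 16 and 41 counts, was 2.65 on the log2 scale and 1.91 without replicate 24. The rest of the list did not move together. Several rows of the miR-959 to miR-964 group were highest in replicate 21, for example miR-960-5p with 13, 8 and 75 counts against 15, 19 and 12 (log2 fold change -1.20, and 0.32 without replicate 21). The median log2 fold change of the list was -0.07.

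Several other miRNAs rose from counts at or near 0 or from low counts. miR-4911-3p had 0, 0 and 1 counts in the Repo/2U libraries and 85, 87 and 65 in the Repo/TDP43 libraries, a ratio of 228 per total count (exact 95% interval 40.6 to 9055, counting error only). miR-4948-3p had no count in any control and 15, 12 and 12 in Repo/TDP43, which is at least 12.5-fold higher against a floor of 3 counts over the 3 controls. miR-9388 rose on both arms, the 3p arm from 31, 66 and 65 to 280, 401 and 556 counts (log2 fold change 2.79 ± 0.43, edgeR adjusted p = 0.00292) and the 5p arm from 0, 4 and 3 to 43, 77 and 68. Every Repo/TDP43 library held more counts than every control for all of these. Over all 105 miRNAs with both arms tested, 15 had a called arm, and the other arm pointed the same way in 15 of 15. Both arms were called in 6. Both arms come from 1 precursor and the same libraries, so these are not separate measurements.

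miRNAs that fell were fewer. miR-969-3p had 325, 392 and 335 counts in Repo/2U and 85, 90 and 103 in Repo/TDP43 (log2 fold change -2.09 ± 0.26, edgeR adjusted p = 0.000912). miR-375-3p, whose mammalian namesake marks pancreatic islet cells, had 3591, 3324 and 4175 against 1893, 2170 and 2025 counts (-1.0 ± 0.20, edgeR adjusted p = 0.0109). The libraries of a group stood close together for both. miR-10-5p, from a gene within the Hox complex, fell by 0.71 ± 0.16 on the log2 scale from 9778, 7623 and 8723 to 6061, 5821 and 5776 counts (edgeR adjusted p = 0.0205), but lost its call without replicate 19, 20, 21 or 23 (edgeR adjusted p between 0.0531 and 0.0870) and with factors from miRNA rows (edgeR adjusted p = 0.127).

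The steepest falls, by contrast, rested on controls that disagreed with each other. miR-958-3p had 236, 101 and 840 counts in Repo/2U and 7, 5 and 14 in Repo/TDP43 (log2 fold change -5.59 ± 0.78, edgeR adjusted p = 0.00173). miR-956-3p had 889, 248 and 2231 against 39, 36 and 54 counts (-4.78 ± 0.65, edgeR adjusted p = 0.00158), and miR-314-3p, from the neighbouring gene on chromosome 3L, had 405, 209 and 1671 against 32, 48 and 53 (-4.18 ± 0.69, edgeR adjusted p = 0.00428). In all 3, replicate 21 was highest and replicate 20 lowest among the controls, and the lowest control was still above every Repo/TDP43 library. Without replicate 21 the log2 fold changes were -4.41, -3.81 and -2.92, and all 3 stayed called in every leave-one-out fit.

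miR-252-5p had the largest fold change of the 20 most abundant miRNAs, and it is described here after its values were seen. miR-252-5p had 1790591, 1413686 and 1336770 counts in Repo/2U and 860761, 842961 and 818950 in Repo/TDP43, and its share of all miRNA counts was 5.33% ± 0.616 (SD, n = 3) against 2.91% ± 0.280 (n = 3). Its log2 fold change of -1.0 ± 0.29 did not pass the test with factors from all rows (edgeR adjusted p = 0.0601) but did with factors from miRNA rows alone (edgeR adjusted p = 0.00312). Its other arm, miR-252-3p, had 11836, 9585 and 9192 against 7247, 7122 and 6099 counts (-0.74 ± 0.18, edgeR adjusted p = 0.0272), and lost this call without replicate 19, 20, 22 or 24 (edgeR adjusted p between 0.0601 and 0.112) and with factors from miRNA rows (edgeR adjusted p = 0.128). Both arms thus lay lower in all 3 Repo/TDP43 libraries.

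Apart from miR-252-5p, the miRNAs that carry most of the reads had smaller differences in share. Uncalled does not mean unchanged here, since their fold changes had wide errors, such as an SE of 0.36 on the log2 scale for miR-34-5p. miR-34-5p, known from ageing and upkeep of the fly brain, was the most abundant and took 15.4% ± 1.27 (SD, n = 3) of miRNA counts in Repo/2U and 15.8% ± 0.782 (n = 3) in Repo/TDP43. miR-276a-3p, known from olfactory memory, took 9.68% ± 0.394 and 9.28% ± 0.371. miR-210-3p took 8.74% ± 0.471 and 8.84% ± 0.760. miR-14-3p, a regulator of fat metabolism and cell death, took 9.07% ± 0.125 and 9.99% ± 0.146. Of these 4, only miR-14-3p had shares that did not overlap between groups. let-7-5p, which acts late in development and in ageing, took 1.13% ± 0.0702 and 1.47% ± 0.130, which did not overlap, but its log2 fold change of 0.24 ± 0.29 did not pass the test (edgeR adjusted p = 0.726). No row was called on the lists of 11 neuronal or brain miRNAs (22 rows, of which 2 are identical), of the let-7 complex (6 rows), of glial or growth miRNAs (6 rows) or of photoreceptor and sensory organ miRNAs (10 rows), with median log2 fold changes of -0.20, 0.11, -0.17 and -0.02. On the list of 6 metabolic miRNAs only the arms of miR-375 were called. On the miR-2/13 family list of 17 rows the 3 called rows were those of miR-6-3p.

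**Figure D3:**
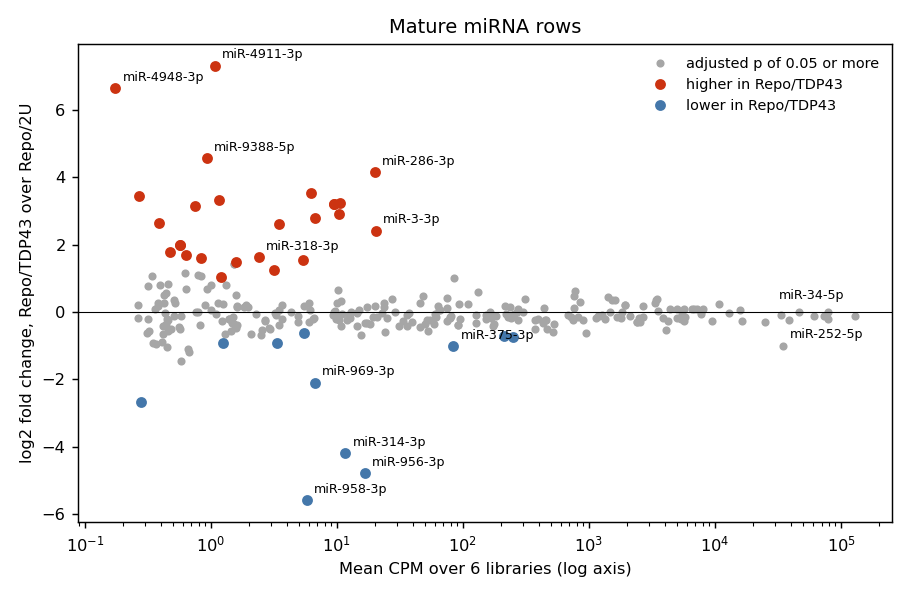
Mean level (CPM, log axis) of each of the 294 tested mature miRNA rows against its log2 fold change, Repo/TDP43 over Repo/2U, with red for called higher, blue for called lower and grey for the rest. Most called rows lie at low levels, the 20 most abundant are uncalled between -1.0 and 0.24, and the fitted values of miR-4911-3p and miR-4948-3p, whose controls are at or near 0 counts, are no estimates of size.

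Hairpin rows, which count reads on the precursor, showed little. 97 of 230 were tested and 2 were called, both higher. mir-87, from a gene needed for dendrite regrowth, had 1112, 1103 and 1543 counts in Repo/2U and 2544, 2170 and 4572 in Repo/TDP43 (log2 fold change 1.18 ± 0.31, edgeR adjusted p = 0.043). Its mature row miR-87-5p also rose, from 82, 45 and 65 to 165, 136 and 193 counts (1.24 ± 0.23, edgeR adjusted p = 0.00737). Its other arm, miR-87-3p, was not called (1.02 on the log2 scale). mir-275 rose from 70, 55 and 72 to 159, 122 and 176 counts (1.06 ± 0.21, edgeR adjusted p = 0.011). Neither mature arm of mir-275 was called, with log2 fold changes of -0.24 for 5p and 0.36 for 3p. Without replicate 19 neither hairpin was called (edgeR adjusted p = 0.0508 for mir-275), and mir-87 also lost its call without replicate 20, 21, 23 or 24 (edgeR adjusted p between 0.0724 and 0.156). mir-307a, with between 115239 and 152979 counts the most abundant hairpin row, had a log2 fold change of -0.24 ± 0.28.

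Transposon small RNAs changed element by element and in both directions. On the sense strand, in the orientation of the transposon mRNA, 14 of 113 tested elements were higher and 14 lower. Scaled by totals alone, 13 were higher and 5 lower. On the antisense strand, which can pair with that mRNA, 8 of 114 were higher and 11 lower. With factors from miRNA rows these numbers were 3 and 8, and without replicate 22 they were 14 and 5, so the balance of directions on this strand depended on that library. Without replicate 22 there were 21 higher and 8 lower on the sense strand. Of the 28 sense calls 15 held in each of the 6 leave-one-out fits, and of the 19 antisense calls 9 did.

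The largest sense rises were 3S18 and FB. 3S18, an LTR retrotransposon of the BEL/Pao group, had 246, 182 and 189 sense counts in Repo/2U and 2755, 2564 and 2694 in Repo/TDP43 (log2 fold change 3.55 ± 0.18, edgeR adjusted p = 2.74e-05). Its antisense counts were 982, 815 and 884 against 1232, 1371 and 1216 (0.37 ± 0.18, edgeR adjusted p = 0.308). Sense reads thus went from well below to well above the antisense reads. FB, the foldback DNA transposon, whose ends are long inverted repeats, rose on both strands. It had 721, 675 and 731 sense counts against 8071, 9443 and 9088 (3.51 ± 0.23, edgeR adjusted p = 6.21e-05). On the antisense strand it had 743, 751 and 814 against 7653, 8544 and 8792 (3.29 ± 0.23, edgeR adjusted p = 6.21e-05). The strands stayed near balance in every library. NOF, an element often carried inside FB, rose on both strands as well, with 60, 41 and 126 sense counts against 228, 244 and 238 and 67, 37 and 135 antisense counts against 227, 251 and 244. Both NOF calls were lost without replicate 19, 20 or 23, and the antisense call also without replicate 24 (edgeR adjusted p between 0.0557 and 0.106).

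Among LTR elements, micropia rose from 599, 391 and 504 to 2312, 2298 and 2098 sense counts (log2 fold change 2.03 ± 0.16, edgeR adjusted p = 0.000104). invader4 rose from 103, 64 and 106 to 646, 721 and 627 sense counts (2.75 ± 0.21, edgeR adjusted p = 9.0e-05), and from 150, 108 and 168 to 322, 310 and 310 antisense counts (1.01 ± 0.18, edgeR adjusted p = 0.00691). mdg3, invader5, invader6 and diver rose on the sense strand by between 1.51 and 2.68 on the log2 scale (invader5, the upper end, by 3.31 without replicate 21), and none of their antisense rows was called. The telomeric elements HeT-A and TAHRE, LINE-like retrotransposons that maintain fly chromosome ends, rose on both strands. HeT-A had 152, 126 and 154 against 694, 423 and 401 sense counts (1.61 ± 0.15, edgeR adjusted p = 0.000207), and TAHRE had 318, 245 and 248 against 606, 620 and 618 antisense counts (1.04 ± 0.18, edgeR adjusted p = 0.0055). TART, the third telomeric element, was not called, with 520, 508 and 493 against 766, 794 and 735 sense counts, though it was called without replicate 22 (log2 fold change 0.62 against 0.43). The antisense call of HeT-A (0.69 ± 0.18 on the log2 scale) was lost without replicate 19, 20, 21, 23 or 24 (edgeR adjusted p between 0.0653 and 0.171).

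Some of the most abundant transposon small RNAs fell. mdg1, an LTR element, had 14602, 15273 and 13239 sense counts in Repo/2U and 5369, 6511 and 5492 in Repo/TDP43 (log2 fold change -1.47 ± 0.24, edgeR adjusted p = 0.00378). Its antisense counts, the highest of any element, were 54752, 43248 and 46555 against 27111, 32626 and 32820 (-0.77 ± 0.23, edgeR adjusted p = 0.0716). Every Repo/TDP43 library lay below every control on both strands, though only the sense strand passed the test. springer, an endogenous retrovirus-like element, fell on both strands, from 10595, 9130 and 8383 to 5031, 5190 and 4659 sense counts (-1.07 ± 0.19, edgeR adjusted p = 0.00617) and from 8300, 7608 and 6767 to 3623, 4174 and 3349 antisense counts (-1.18 ± 0.21, edgeR adjusted p = 0.00672). Stalker also fell on both strands. Idefix was called on the sense strand alone and fell from 714, 614 and 483 to 263, 220 and 234 counts (-1.51 ± 0.19, edgeR adjusted p = 0.00109), while its antisense counts were 16774, 12174 and 13826 against 21327, 20838 and 17218 (0.32 ± 0.17, edgeR adjusted p = 0.353). On the list of the mdg1 lineage 4 of 6 elements were lower on the sense strand and 1 on the antisense strand. On the list of 14 errantiviruses 1 was higher and 3 lower on the sense strand, and 1 was lower on the antisense strand. On the list of 8 jockey-clade LINEs none was higher and 3 lower on the sense strand by edgeR, and 1 was higher and 2 lower on the antisense strand. Neither copia-type element was called. These list counts stand beside 24.8% called among all sense and 16.7% among all antisense transposon rows. opus, one of the most abundant elements on both strands, had 5428, 6237 and 6424 against 9115, 11674 and 12689 sense counts and did not pass the test (0.75 ± 0.26, edgeR adjusted p = 0.133), but did without replicate 22 (1.03 on the log2 scale).

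Several elements were called on the antisense strand alone. Tc1, a DNA transposon, had 1237, 1107 and 1821 antisense counts in Repo/2U and 221, 262 and 246 in Repo/TDP43 (log2 fold change -2.65 ± 0.24, edgeR adjusted p = 0.000202), with at most 22 sense counts in any library. hobo, another DNA transposon, rose from 106, 47 and 162 to 352, 317 and 364 antisense counts (1.61 ± 0.30, edgeR adjusted p = 0.00889), with 284, 190 and 504 against 370, 372 and 385 sense counts. The LINE baggins fell from 587, 272 and 2072 to 241, 159 and 154 (-2.54 ± 0.55, edgeR adjusted p = 0.017). Its controls were as widely spread as those of miR-958-3p, again with replicate 21 highest and 20 lowest. Without replicate 21 its log2 fold change was -1.40, and without replicate 22 or 23 it was not called (edgeR adjusted p = 0.0739 and 0.0812). The R1A1-element, G6, invader3, G2 and G-element antisense rows, of which G6 was called on the sense strand too, had the same order of controls. Without replicate 21 their log2 fold changes were -1.12, -1.44, -1.31, -0.79 and -0.79, against -2.03, -2.0, -1.99, -1.47 and -1.40 with it. The calls of G2 and G-element were lost without replicate 19, 21, 22, 23 or 24, that of the R1A1-element without 22, 23 or 24, that of G6 without 22 or 23 and that of invader3 without 22 (edgeR adjusted p between 0.0508 and 0.170).

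**Figure D4:**
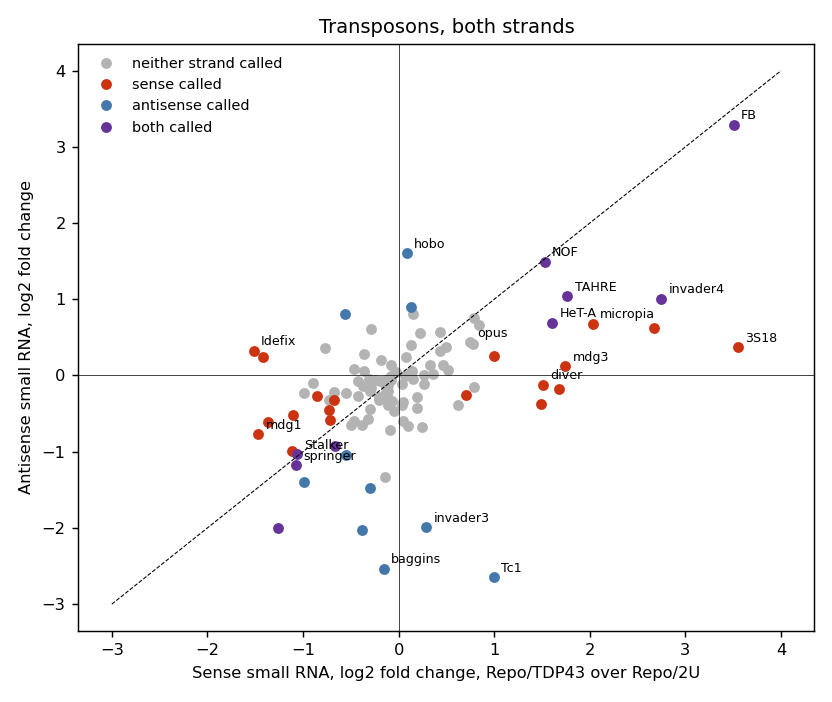
Log2 fold change of sense against antisense small RNA (Repo/TDP43 over Repo/2U) for the 111 transposons tested on both strands, with colours for the strand called and a dashed line where both change alike. FB and NOF lie near the line, 3S18, micropia and invader4 lie to its right with a larger sense rise, and Tc1 and baggins lie below it.

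Of the 111 elements tested on both strands, 28 were called on the sense and 19 on the antisense strand, and the 9 called on both moved the same way on both. The correlation of the fold changes of the strands was 0.48 across elements, which share libraries and scaling. The antisense to sense ratio was then tested within each library, so that it does not depend on scaling. It differed for 23 of 104 elements (22.1%) in edgeR with the library as a block, lower in Repo/TDP43 for 15 and higher for 8. Without replicate 22 or 23 it differed for 13 and 14 elements. The lowest were 3S18 (log2 change of the ratio -3.20 ± 0.12, edgeR adjusted p = 1.86e-06), invader3 (-2.12 ± 0.35, edgeR adjusted p = 0.00458) and invader6 (-1.82 ± 0.23, edgeR adjusted p = 0.00135). For invader3, replicate 21 stood apart, with Repo/2U antisense counts of 188, 142 and 504 beside sense counts of 201, 150 and 227. The highest were Idefix (1.80 ± 0.18, edgeR adjusted p = 0.000637) and hobo (1.54 ± 0.17, edgeR adjusted p = 0.000842). In gypsy, whose strands were not called by themselves, the ratio was lower by 0.65 ± 0.10 on the log2 scale (edgeR adjusted p = 0.00317).

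Summed over all 121 elements with both strands, antisense reads outnumbered sense reads by 3.84, 3.24 and 3.54 in the Repo/2U libraries and 3.22, 3.27 and 3.21 in the Repo/TDP43 libraries. Replicate 20 of the controls lay among the Repo/TDP43 values (exact permutation p = 0.2, two-sided). Without mdg1 alone the ratio was 3.87, 3.36 and 3.54 against 3.07, 3.11 and 2.98, which do not overlap (exact permutation p = 0.1). The ratio of mdg1 itself was higher in Repo/TDP43, by 0.67 ± 0.19 on the log2 scale. No other single element was left out in this way, so the sum without mdg1 is a description. For the 21 DNA transposons the ratio was 1.51, 1.68 and 1.34 against 0.996, 0.975 and 1.01, which do not overlap, and p was 0.1, the smallest this design allows (exact permutation, two-sided). FB and Tc1 made up much of this sum. FB, near balance, held 8071, 9443 and 9088 sense counts in Repo/TDP43, where the class held at most 11097. Tc1 antisense counts fell from 1237, 1107 and 1821 to 221, 262 and 246. The ratio of FB itself was not called (-0.21 ± 0.10 on the log2 scale, edgeR adjusted p = 0.2), and that of hobo was higher. Other DNA transposons went both ways without a call, such as 1360 (0.69) and transib2 (-0.53). The summed ratio without FB and Tc1 was not calculated, so the lower class value is not shown for the rest of the class. For the 40 LINE elements it was 3.62, 3.72 and 3.76 against 3.57, 3.45 and 3.52 (exact permutation p = 0.1), and for the 60 LTR elements 3.98, 3.21 and 3.63 against 3.58, 3.72 and 3.62 (exact permutation p = 0.9). These 5 permutation values are not adjusted, and none could pass at 0.05.

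RNA-seq of Repo/TDP43 heads (2 libraries) and of heads with the transgene but no driver (2 libraries, TDP43/2U) gives the levels of the transposon mRNAs themselves. Its controls carry another genotype than the small RNA controls, so values are only set side by side. 13 of the 14 elements with more sense small RNA also had higher mean RNA-seq CPM in Repo/TDP43, and 9 of the 14 with less had lower, beside 73 higher (65.8%) and 38 lower among all 111 elements tested on both strands. 3S18 had 744 and 762 CPM in Repo/TDP43 and 278 and 240.1 in TDP43/2U, and HeT-A had 797 and 787 against 304 and 300.4. FB, with about the same rise in small RNA as 3S18, had 135 and 142 against 142 and 121 CPM. micropia had 532 and 559 against 544 and 458 CPM. springer, which fell in small RNA on both strands, had 4209 and 4700 against 3055 and 2297 CPM. Across 111 elements the log2 RNA-seq ratio correlated with the sense change at 0.40 and with the antisense change at 0.042, over points that share libraries. An effect of genomic copy number on these values was not tested.

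piRNA cluster rows were nearly empty, with 31 of 96 holding enough counts to test. cluster33 had 81, 65 and 78 counts in Repo/2U and 24, 27 and 19 in Repo/TDP43 (log2 fold change -1.84 ± 0.22, edgeR adjusted p = 0.000833). cluster12 had 17, 13 and 18 against 11, 9 and 6 counts (-1.05 ± 0.23, edgeR adjusted p = 0.0271), a call lost without replicate 19, 20, 21, 22 or 24 (edgeR adjusted p between 0.0604 and 0.103). The groups did not overlap in either, at very low counts. 42AB, the largest germline cluster, had 174, 133 and 182 against 194, 215 and 198 counts (0.18 ± 0.20, edgeR adjusted p = 0.688). No cluster row was called higher by edgeR, and 8 of the 31 had an unadjusted p under 0.05.

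Exon rows gave most of the calls, 1588 higher and 506 lower of 20000 tested. Scaled by totals alone, 1145 were higher and 193 lower, and with factors from miRNA rows 857 and 170. The table repeats an exon for each transcript that holds it, and without identical repeats there were 1108 higher and 339 lower of 12610. They lay in 773 genes with a higher and 270 genes with a lower row. Most were sparse, with a median of 23.8 counts per library among called rows. Small nuclear RNAs stood out in number, though their rows include near-identical gene copies that can count the same reads. Of their 25 distinct rows tested 15 were higher and none lower by edgeR (12 and none with factors from miRNA rows), and of the 220 distinct snoRNA rows 51 were higher and 1 lower (20 and none with factors from miRNA rows). Protein-coding exons had 979 higher and 319 lower of 11689 distinct rows (539 and 118 with factors from miRNA rows).

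snRNA:U7, which guides the trimming of histone mRNA ends, had 505, 360 and 365 counts in its exon 1 row in Repo/2U and 2407, 1898 and 2382 in Repo/TDP43 (log2 fold change 2.29 ± 0.17, edgeR adjusted p = 7.59e-05). snRNA:U4:39B exon 1, from a spliceosomal RNA, had 7219, 6291 and 6920 against 17212, 17967 and 24080 counts (1.40 ± 0.23). snoRNA:Psi28S-2566 exon 1, a guide for modification of 28S ribosomal RNA, had 241, 135 and 153 against 801, 632 and 810 (1.95 ± 0.19, edgeR adjusted p = 0.00027). The groups were well apart in all of these. The U1, U5 and U6 rows belong to near-identical gene copies with shared or equal counts, so the copies cannot be told apart. 7SLRNA:CR32864, the RNA of the signal recognition particle and among the most abundant exon rows, had 31246, 22488 and 26358 against 37690, 29669 and 31730 counts (0.15 ± 0.15, edgeR adjusted p = 0.675).

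Arc1, a capsid-forming gene descended from a retrotransposon, had the largest rise among exon rows of at least 10 CPM whose groups did not overlap. Its exon 1 row had 493, 327 and 489 counts in Repo/2U and 4101, 2854 and 3178 in Repo/TDP43 (log2 fold change 2.79 ± 0.13, edgeR adjusted p = 2.74e-05). Its RNA-seq level was 4602 and 4729 CPM in Repo/TDP43 and 480.1 and 489.5 in TDP43/2U. Both readouts were thus several-fold higher. The falls of at least 10 CPM were led by Nox exon 1 (867, 336 and 1501 against 79, 59 and 67 counts, -3.84 ± 0.40, edgeR adjusted p = 0.000373), from the gene of an NADPH oxidase, whose RNA-seq level was 0.920 and 1.38 against 1.37 and 1.07 CPM. tio exon 3, from a zinc finger gene, fell from 943, 287 and 778 to 203, 178 and 157 counts (-2.0 ± 0.28, edgeR adjusted p = 0.00183), and eco exon 1, from the gene of a cohesin acetyltransferase, from 752, 681 and 487 to 245, 208 and 148 (-1.87 ± 0.23, edgeR adjusted p = 0.000786). Replicate 20 was lowest among the controls for Nox and tio, but not for eco.

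Among known endogenous siRNA sources, only the long hairpin at CG4068 was called. Its row, exon 4 of CG44774, had 8523, 7634 and 5423 counts in Repo/2U and 17257, 18678 and 16785 in Repo/TDP43 (log2 fold change 1.13 ± 0.24, edgeR adjusted p = 0.0155). The groups did not overlap, but the call was lost without replicate 21 or 23 (edgeR adjusted p between 0.0559 and 0.0816). AGO2, the gene of Argonaute2, and its neighbour CG7739 form an overlapping pair, and the rows CG7739 exon 2 (225, 216 and 244 against 378, 364 and 361 counts) and AGO2 exon 6 (147, 167 and 172 against 237, 280 and 306) did not pass the test (edgeR adjusted p = 0.122 and 0.218), but were called without replicate 22, at log2 fold changes of 0.70 and 0.88. Introns of thickveins, another source, were flat, with 2497, 1808 and 1718 against 2846, 1967 and 2296 counts in tkv intron 2 (0.063 ± 0.15). klar rows held at most 21 counts. In all, 4 of the 11 loci had an exon row tested and 2 an intron row.

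Some genes had many exon rows called higher, and they are named here after their values were seen. They were picked for these calls, so their fractions stand beside 1108 higher and 339 lower of all 12610 distinct exon rows tested. Only exon rows with enough counts in at least one group were tested, so a row nearly empty in the controls entered only where it was high in Repo/TDP43, and the numbers of rows are a description. All 14 distinct mv exon rows tested were higher, by between 1.47 and 3.02 on the log2 scale. mv encodes a large protein of lysosome-related organelles. 8 of 9 exon rows of Vps13 (1.23 to 2.82) and 11 of 12 of Vps13B, both genes of large lipid transfer proteins, were higher as well, as were 7 of 12 of hiw, the gene of a synaptic ubiquitin ligase (1.06 to 2.29). Vps13B exon 2, among its best covered rows, had 51, 34 and 46 against 133, 140 and 101 counts (1.37 ± 0.22), while Vps13B exon 10 had 2 counts over the controls and 92 over Repo/TDP43, a ratio of 44.3 per total count (exact 95% interval 11.9 to 371, counting error only). The largest count of any of the called Vps13B rows was 52 in Repo/2U. RNA-seq gave 441 and 445 CPM for mv in Repo/TDP43 against 338 and 301, and 718 and 764 against 851 and 638 for hiw. kel, the gene of an actin-binding ring canal protein of the ovary, had 4 of 4 rows higher, such as kel exon 5 with 6, 6 and 8 against 118, 127 and 98 counts (3.93 ± 0.29), and grk exon 4, from the gene of an oocyte signal, had 13, 11 and 13 against 82, 112 and 104 (2.88 ± 0.31). The RNA-seq level of kel was 62.1 and 62.8 against 56.8 and 53.3 CPM. No list of ovary genes was tested, so kel and grk do not stand for such genes as a group. white (w), the eye pigment gene whose short copy marks most fly transgenes, had 5 of 6 exon rows higher, among them w exon 6 with 54, 35 and 35 against 148, 95 and 117 counts (1.36 ± 0.20). The number of marker copies in each genotype is not given in the sources used here, and copy number and level cannot be told apart. CG4577 had all 6 exon rows lower (-2.37 to -0.99).

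Genes whose exon rows rose tended to have more RNA-seq signal as well. Of 568 genes with exon rows called only higher and at least 1 CPM in RNA-seq, 460 (81.0%) had a higher mean in Repo/TDP43, and of 183 with rows called only lower 52 (28.4%) did, beside 56.4% of the 4360 genes with no called row. The medians of the log2 RNA-seq ratio were 0.28, -0.30 and 0.048. The correlation between both changes over 760 genes with a called row was 0.39, across genes that share libraries.

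**Figure D5:**
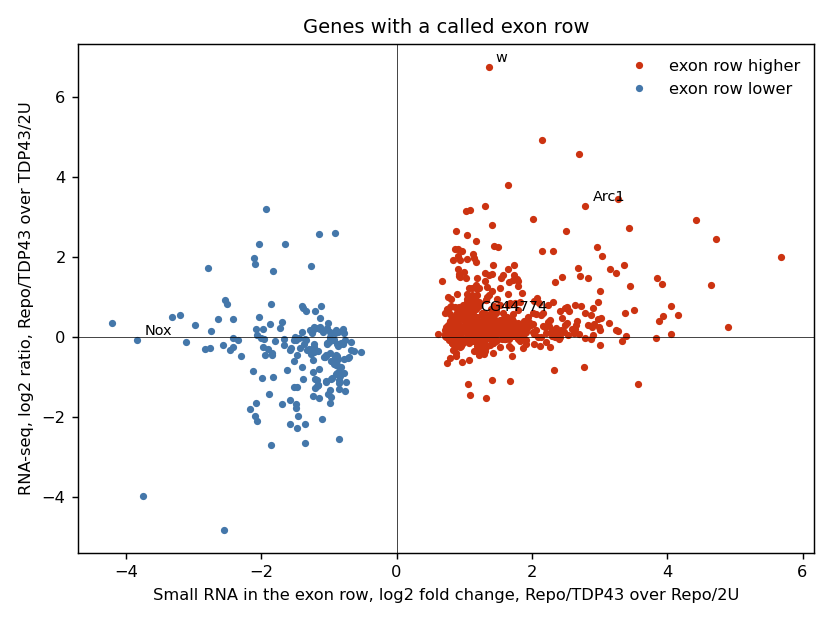
Log2 fold change of the most abundant called exon row of a gene (small RNA, Repo/TDP43 over Repo/2U) against its log2 RNA-seq ratio (Repo/TDP43 over TDP43/2U, 2 libraries each), with 1 point per gene, red where rows were called higher and blue where lower. Points are more often above 0 on the right (460 of 568) than on the left (52 of 183). Arc1 is high on both axes, w is highest in RNA-seq, and Nox is low in small RNA with an RNA-seq ratio near 0.

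Of 4522 intron rows tested 252 were higher and 97 lower (211 and 39 scaled by totals alone), and without identical repeats 165 and 50 of 2426. DIP-epsilon intron 2, from the gene of a neuronal surface protein, had 1347, 1049 and 1054 counts in Repo/2U and 2872, 2498 and 2620 in Repo/TDP43 (log2 fold change 1.05 ± 0.15, edgeR adjusted p = 0.00202). Among introns of rRNA transcripts 18 of 59 distinct rows were higher and none lower by edgeR (6 and none with factors from miRNA rows), such as pre-rRNA:CR45845 intron 3 with 645, 539 and 590 against 1420, 1256 and 1294 counts (1.0 ± 0.15, edgeR adjusted p = 0.00208). These transcripts are repeated copies, and reads are not unique to one of them. Pomp intron 1, outside the naming rule, had 0, 0 and 1 counts in Repo/2U and 63, 65 and 58 in Repo/TDP43, a ratio of 179 per total count (exact 95% interval 31.8 to 7115, counting error only). Csk intron 1, from a kinase gene, fell from 2169, 1298 and 1694 to 1431, 964 and 1235 counts (-0.66 ± 0.14, edgeR adjusted p = 0.0141), and lost the call without replicate 19 or 23 (edgeR adjusted p = 0.105 and 0.0946). The most abundant intron rows, such as Wdr62 intron 9 with 31336, 25853 and 18955 against 43037, 36036 and 29447 counts, did not pass the test (0.32 ± 0.22, edgeR adjusted p = 0.480).

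Ribosomal RNA rows changed least, with 11 of 2956 higher and none lower by edgeR at log2 fold changes between 0.46 and 0.97, beside 150 with an unadjusted p under 0.05. All 11 were copies of the large subunit repeat. The largest, LSU-rRNA_Dme_2107, had 406, 239 and 267 counts in Repo/2U and 891, 562 and 565 in Repo/TDP43 (0.97 ± 0.15, edgeR adjusted p = 0.00301). With factors from miRNA rows none was called by edgeR, with 6 at an unadjusted p under 0.05, and DESeq2 called 7. The most abundant row, LSU-rRNA_Dme_4, had 8532, 5516 and 7898 against 10073, 6516 and 7986 counts.

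Replicate 21 stood above the other controls in part of the called rows. Of 427 distinct rows called lower, it held the highest control CPM in 204 and more than double the next control in 50. Of 1334 distinct rows called higher, it held the highest control CPM in 388 and more than double the next control in 25, and over all 18638 distinct tested rows it did the latter in 240. How often it was the highest control over all tested rows was not counted, so 204 and 388 are only a description. The part of replicate 21 in the results was not tested beyond the values without it given above.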

How the data were processed

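RNA from heads was size-selected by the authors to 18 to 29 nt and sequenced; their notes name Bowtie, bedtools and the dm3 genome. The deposited small RNA table and RNA-seq table hold whole-number read counts without normalization, without molecular identifiers. How reads with several alignments were assigned is not given in the sources used here, and exon and intron rows repeat for each transcript. Of 33776 transcripts, 33540 were matched to a symbol; chromosomes and neighbours come from a RefSeq table of a later assembly, so no coordinates are printed.

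Calculations used R 4.3.3. All rows passing filterByExpr were tested with edgeR 4.0.16 (TMM, quasi-likelihood, Benjamini-Hochberg over all rows, adjusted p under 0.05; SE from the log2 fold change and F). The antisense to sense ratio was tested as the interaction of strand and genotype, blocked by library, where both strands held 10 or more counts throughout. Class shares used exact permutation over 3 and 3 libraries. RNA-seq values are CPM without a test. Alternatives included other scalings, DESeq2 1.42.0, limma 3.58.1, filters and leaving out each library. The tests were tried on simulated data. Intervals and floors cover counting error only; the depth was between 31074082 and 37736599 counts.

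Rows were named by rule: in each class the 5 most abundant, up to 5 called in each direction with the largest change at 10 CPM or more and no overlap (3 for exons and introns), every call where a class had at most 5, and list members. Members and lists were chosen with earlier results of these data known.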

Additional observations from a re-analysis of the deposited data

How the results depend on the processing

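The log2 ratios of class shares between groups moved by less than the spread between replicates under the other denominators, while the shares themselves moved more, for example for miRNA in Repo/2U from 81.7% to 89.3% without rRNA rows and 75.0% of mapped reads. Leaving out 1 library gave log2 ratios of class shares between -0.046 and 0.010 for miRNA, -0.13 and -0.046 for hairpins, -0.015 and 0.13 for sense and -0.20 and 0.00024 for antisense transposons, -0.21 and 0.063 for piRNA clusters, 0.069 and 0.40 for exons, 0.12 and 0.32 for introns and -0.19 and 0.13 for rRNA. The summed antisense to sense ratio changed by between -0.19 and -0.065.

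Counts of called rows depended on the settings, and the cause was not tested except where fewer rows or samples entered. Scaled by totals alone, 1658 rows were called in all, with 18 sense transposon, 1 piRNA cluster, 1338 exon and 1 rRNA row. Scaled by mapped reads there were 1 piRNA cluster, 1373 exon and 1 rRNA calls. With TMM factors from miRNA rows there were 1274 in all, with 1 hairpin, 16 sense and 11 antisense transposon, 1 piRNA cluster, 1027 exon, 187 intron and 0 rRNA calls (6 rRNA rows at an unadjusted p under 0.05 in edgeR). With factors without rRNA rows 1 hairpin and 6 rRNA rows were called. DESeq2 called 1341 in all, with 1 hairpin, 1055 exon, 183 intron and 7 rRNA rows. Without a filter 67 miRNA, 8 hairpin and 5 rRNA rows were called. With at least 10 counts in every library 1012 were called, with 24 miRNA, 1 hairpin, 1 piRNA cluster, 806 exon and 129 intron rows. Adjusted within each class, 1 hairpin and 0 rRNA rows were called (150 rRNA rows at an unadjusted p under 0.05 in edgeR). With identical exon and intron rows collapsed, chosen after seeing the data, 223 intron and 19 rRNA rows were called. At an adjusted p under 0.01 there were 1205, with 22 miRNA, 0 hairpin (12 at an unadjusted p under 0.05 in edgeR), 15 sense and 9 antisense transposon, 1 piRNA cluster, 1005 exon, 148 intron and 5 rRNA calls. Requiring 100 counts on each strand, the ratio differed for 12 elements.

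Leaving out 1 library gave between 1576 and 2810 calls in all, 25 and 50 miRNA, 1 and 4 hairpin, 16 and 29 sense and 10 and 19 antisense transposon, 1 and 2 piRNA cluster, 1316 and 2296 exon, 190 and 394 intron and 4 and 17 rRNA calls, and between 13 and 26 elements in the ratio. The lowest total came without replicate 23 and the highest without replicate 22. Over the single rows named by rule, 3771 values stayed on their side of the threshold, 195 lost and 61 gained a call, and none that was called reversed. No paired analysis was possible because the groups share no replicate numbers. Single counts under about 10 per library limit what the rare rows can show.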
